A study of Mus musculus with 9 samples.

Results

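The genes Mtcl1, Rbbp5, Smtnl2, Scarf1, Yif1b, Dpm3, Apoo and Rpl5, 8 in all, are described in the mouse lung by their single transcripts and by the gene as a whole. The deposited table gives 1 row per transcript under its gene ID, so that a gene with several transcripts has several rows. The 8 genes were chosen by the values of these rows in the same 9 libraries, as genes in which single rows moved strongly or in opposite directions while the summed level moved less. They held 27 of the 60108 rows and made up 8 of the 27203 genes, of which 13096 had 2 or more rows. Because the row values chose the genes, the levels and differences of the 8 genes are a description, and no p-value is given for them.

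RNA was taken from whole lungs of male C57BL/6 mice aged 6 to 8 weeks. In 2 of the 3 groups the mice had been ventilated mechanically for 4 hours with a tidal volume of 20 ml/kg, a model of ventilator-induced lung injury (VILI), and were killed at once (VILI 0 hours, here also 0 hours) or 6 hours later (VILI 6 hours, here also 6 hours). Control mice were intubated and not ventilated. The labels name no genetic change in any group, and each group had 3 libraries from as many mice, so that the spread between libraries holds both technical and animal variation. Values are in FPKM, the number of sequenced fragments of a transcript relative to its length and to the size of the library, a level per length that can be compared between genes and rows.

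Most mammalian genes give more than 1 transcript, through different start sites, splicing and ends. Sequencing fragments are short, and those that fall on an exon shared by several transcripts do not show which transcript they came from. Programs of the kind used by the authors divide such fragments among the transcripts by a likelihood model, and the sum over a gene does not depend on how they are divided in the way a single row does. The rows of the deposited table carry no transcript ID and, for annotated genes, no position or length. Rows are therefore numbered by their order within the gene in the file, and no row can be tied to a particular annotated transcript. For each of the 8 genes, the number of rows equalled the number of protein-coding transcripts in GENCODE M21 (mouse build GRCm38), as it did for 18852 of 21622 coding genes (87.2%).

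The 8 genes serve unrelated functions. Mtcl1 (ENSMUSG00000052105, chr17:66336982-66449750, minus strand) encodes a microtubule crosslinking factor that organizes microtubules in polarized epithelial cells. Rbbp5 (ENSMUSG00000026439, chr1:132477365-132505659, plus strand) encodes a core subunit of the complexes that methylate lysine 4 of histone H3. Smtnl2 (ENSMUSG00000045667, chr11:72389164-72411713, minus strand) encodes a smoothelin-like protein with a calponin homology domain. Scarf1 (ENSMUSG00000038188, chr11:75513540-75526582, plus strand) encodes a scavenger receptor of endothelial cells. Yif1b (ENSMUSG00000030588, chr7:29238329-29247597, plus strand) encodes a membrane protein of traffic between endoplasmic reticulum and Golgi. Dpm3 (ENSMUSG00000042737, chr3:89259358-89267079, plus strand) encodes the subunit that anchors dolichol phosphate mannose synthase in the membrane. Apoo (ENSMUSG00000079508, chrX:94367117-94417093, plus strand) encodes a subunit of MICOS, the complex that shapes the cristae of mitochondria. Rpl5 (ENSMUSG00000058558, chr5:107900502-107909005, plus strand) encodes the protein of the large ribosomal subunit that binds 5S ribosomal RNA together with Rpl11.

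The coding transcripts of these genes share much of their sequence, to an extent that differs between genes. Places where some coding sequences part are shown as examples of where a sequencing fragment can tell 2 transcripts from each other. They are not the only such places. Rbbp5-207 ends at position 132504889 and Rbbp5-206 at 132504490, and Scarf1-201 has 270 bases that Scarf1-202 lacks. The sequences below are coding sequence of GENCODE M21 (GRCm38), read 5′ to 3′ on the strand of the gene. The lower case letters are the last bases that both transcripts share from the start codon, and the capitals mark the bases that follow in each of them. Mtcl1-201 and Mtcl1-202 share their first 5643 coding bases, up to position 66342826 of chromosome 17. Rbbp5-206 and Rbbp5-207 part after 1588 coding bases at position 132498121 of chromosome 1, where Rbbp5-207 has additional bases before both go on alike. Scarf1-201 and Scarf1-202 part after 1367 coding bases at position 75522296 of chromosome 11. Yif1b-201 and Yif1b-203 part after 46 coding bases at position 29238436 of chromosome 7.
Mtcl1-201: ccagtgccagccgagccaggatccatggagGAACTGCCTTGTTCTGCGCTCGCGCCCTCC
Mtcl1-202: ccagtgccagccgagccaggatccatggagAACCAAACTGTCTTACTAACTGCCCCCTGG
Rbbp5-206: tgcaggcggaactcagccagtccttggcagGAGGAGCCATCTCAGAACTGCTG
Rbbp5-207: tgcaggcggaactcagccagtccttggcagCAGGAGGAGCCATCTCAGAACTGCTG
Scarf1-201: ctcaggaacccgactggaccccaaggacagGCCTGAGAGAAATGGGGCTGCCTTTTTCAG
Scarf1-202: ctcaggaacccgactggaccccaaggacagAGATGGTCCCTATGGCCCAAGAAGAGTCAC
Yif1b-201: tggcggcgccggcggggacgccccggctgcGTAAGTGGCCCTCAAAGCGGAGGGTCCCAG
Yif1b-203: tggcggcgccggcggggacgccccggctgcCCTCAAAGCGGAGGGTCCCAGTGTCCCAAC

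The coding lengths show how unequal the pairs were. Mtcl1-201 and Mtcl1-202 have 5835 and 5679 coding bases, whereas Rbbp5-206 and Rbbp5-207 have 1611 and 1614. Scarf1-201 has 2460 coding bases and Scarf1-202 has 1434, and the shorter one is read in another frame after the point where they part. In Smtnl2 the annotated coding sequences differ in where they start, since all 1266 coding bases of Smtnl2-202 lie within the 1368 of Smtnl2-201. The transcripts themselves begin almost together, at positions 72411711 and 72411713. They differ mainly at the 3′ end, where Smtnl2-202 runs further and has 950 bases to itself, against 2 in Smtnl2-201. Dpm3-201 and Dpm3-202 have the same coding sequence of 276 bases and differ outside it. In Apoo, Apoo-201 and Apoo-202 likewise share 1 coding sequence, of 492 bases. Over the 8 genes, 21 of the 27 coding transcripts (77.8%) had under 10% of their exonic bases to themselves, and 9 (33.3%) had none, against 63.3% and 34.8% over all 51080 coding transcripts of the 14188 genes with 2 or more. The median share of own bases was 0.81% in the 8 genes and 3.04% in all. Among the 8, the highest shares were those of Rpl5-201 (68.9%) and Dpm3-202 (51.1%).

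Some properties of the whole table touch every value. Column sums ran from 366360 to 388459 FPKM, and 12500 rows were at 0 in all libraries. The deposited file holds no counts, so the number of fragments behind a value is not given here. The 8 listed markers of lung epithelium and endothelium were all present, with a summed level of 35920 to 39350 FPKM in control, 40040 to 43220 at 0 hours and 34140 to 50830 at 6 hours. The summed level of the 8 neutrophil markers was 48.5 to 56.8 FPKM in control, 560 to 1024 at 0 hours and 467 to 1940 at 6 hours. The 6 cardiac muscle markers summed to 136 to 167, 139 to 302 and 149 to 167 FPKM, and the 5 erythroid markers to 3225 to 4182, 4915 to 5419 and 489 to 3867 FPKM. No listed marker was at 0 in all libraries of a group. The part of these differences in cell content in the values of the 8 genes was not tested, and in whole lung fewer cells of a type and less RNA per cell cannot be told apart.

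The pattern that chose the genes held for part of them. A row called higher together with a row called lower, each at an unadjusted P under 0.05 in limma, occurred in 4 of the 8 genes in VILI 0 hours vs control (Mtcl1, Rbbp5, Smtnl2 and Yif1b) and in 3 in VILI 6 hours vs control (Mtcl1, Rbbp5 and Smtnl2). Among all 8202 genes with 2 or more rows tested, 149 (1.82%) and 169 (2.06%) did so. These counts were 76 and 71 with a mean of at least 1 FPKM, and the 169 became 345 without VILI 6 hours replicate 1. At 0 hours, row 1 of Rbbp5 was not called without control replicate 2 or 3 or VILI 0 hours replicate 1, nor row 3 of Yif1b with a pseudocount of 1. In Scarf1 both rows lay lower at 0 hours, so its rows did not move in opposite directions. Dpm3 and Rpl5 had a minor row that moved strongly for its level beside a main row that moved little for its level. The rows of Apoo exchanged places between single libraries. Of the 27 rows, 25 had a mean of at least 0.1 FPKM and were tested, and the other 2, row 2 of Mtcl1 and row 6 of Rbbp5, were at 0 in all 9 libraries.

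**Figure D1:**
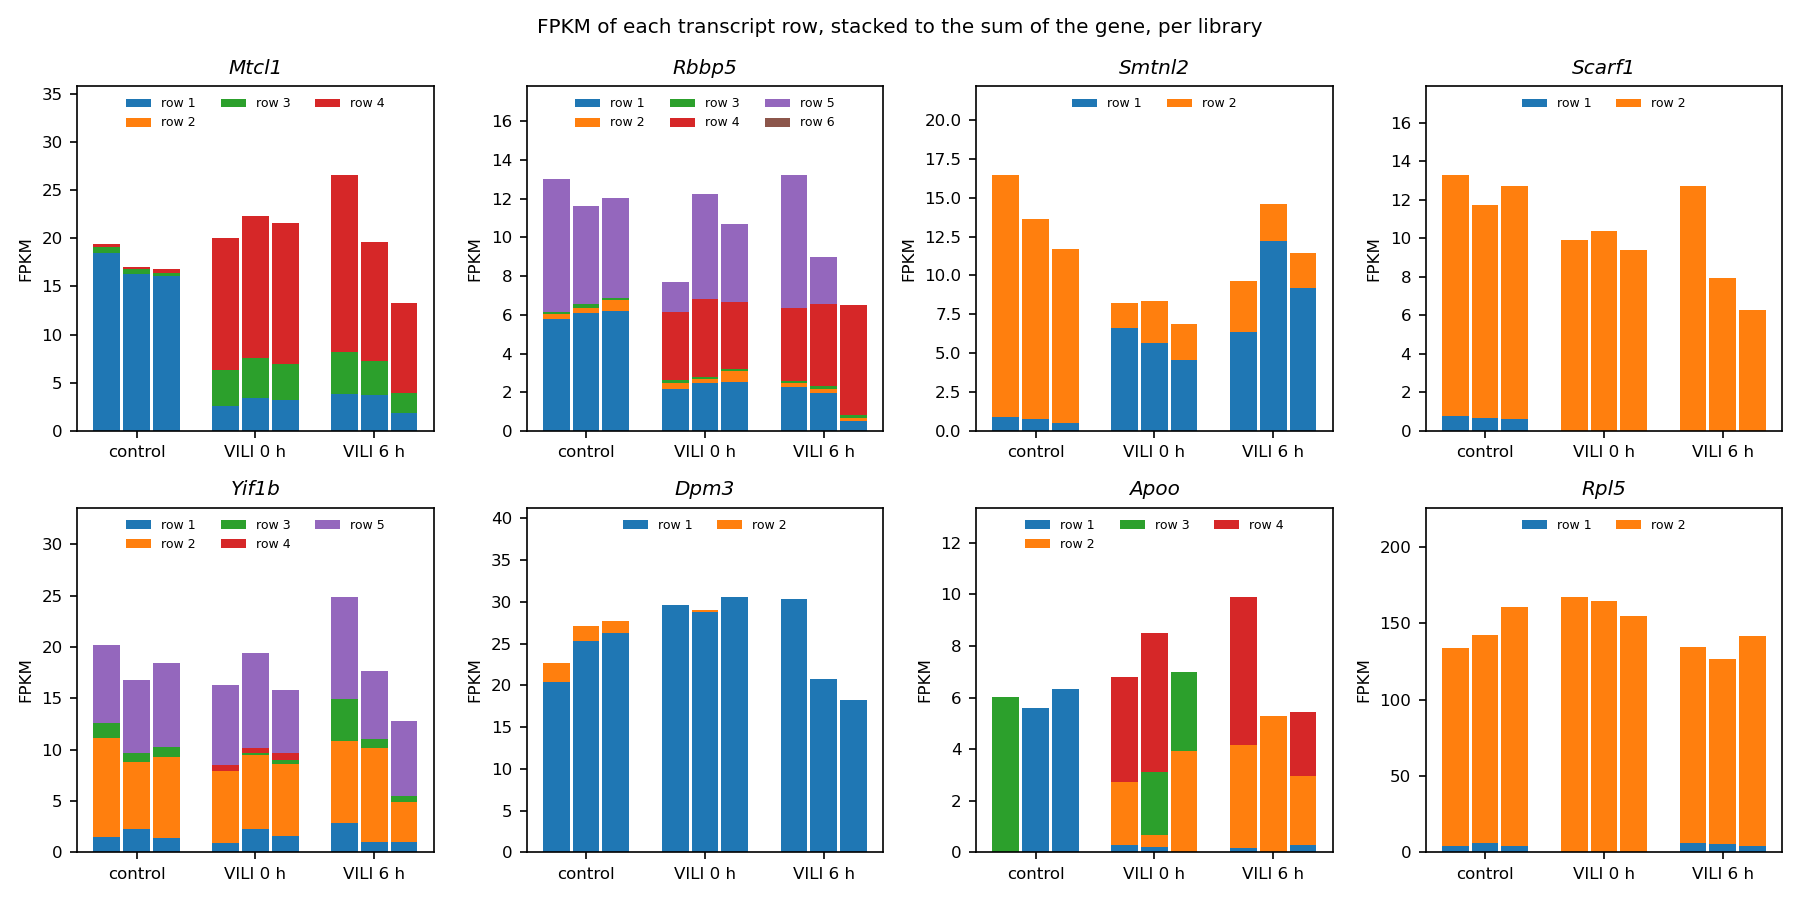
FPKM of each row of the 8 genes, stacked to the sum of the gene, with 1 bar per library and 3 libraries per group (vertical axes in FPKM, a separate scale per gene, colours by row). In Mtcl1 and Smtnl2 the colour that fills the control bars holds at most 33.7% of every VILI bar, whereas Rpl5, Dpm3, Scarf1 and Yif1b keep their main colours.

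Mtcl1 showed the exchange of rows most plainly. Row 1 of 4 was at 18.4, 16.3 and 16.0 FPKM in the control libraries, 2.56, 3.43 and 3.23 at 0 hours and 3.79, 3.76 and 1.86 at 6 hours. Row 4 ran the other way, with 0.325, 0.184 and 0.453 FPKM in control, 13.7, 14.8 and 14.6 at 0 hours and 18.3, 12.3 and 9.35 at 6 hours. Row 3 moved with row 4, from 0.329 to 0.647 FPKM in control to 3.74 to 4.12 at 0 hours and 2.09 to 4.38 at 6 hours. In none of these rows did a VILI library overlap with a control library. Row 1 held 95.3% ± 0.327 of the gene in control (SD, n = 3), 14.4% ± 1.37 at 0 hours and 15.8% ± 2.93 at 6 hours.

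The gene as a whole differed less from its control level than its rows did. The sum of Mtcl1 was 19.4, 17.0 and 16.8 FPKM in control, 19.98, 22.3 and 21.6 at 0 hours, and 26.5, 19.6 and 13.3 at 6 hours. Every VILI 0 hours library lay above the control libraries, and the VILI 6 hours libraries lay on both sides of them. On the scale of log2(FPKM + 0.1), row 1 differed from control by -2.43 (SE 0.27) at 0 hours and -2.46 (SE 0.27) at 6 hours, and row 4 by 5.15 (SE 0.30) and 4.99 (SE 0.30). Row 3 differed by 2.74 (SE 0.32) and 2.47 (SE 0.32). The sum differed by 0.26 (SE 0.21) and 0.10 (SE 0.21). In mean FPKM, the rows that rose gained 17.4 at 0 hours, when row 1 fell by 13.8. At 6 hours they gained 15.8, and row 1 again fell by 13.8. A processed pseudogene, Gm4705, lies within the span of Mtcl1 on the same strand.

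Smtnl2 has 2 rows, and they exchanged the lead as in Mtcl1. Row 2 was at 15.6, 12.9 and 11.2 FPKM in control, at 1.62, 2.68 and 2.27 at 0 hours and at 3.25, 2.38 and 2.27 at 6 hours. Row 1 was at 0.875, 0.758 and 0.491 FPKM in control, at 6.63, 5.69 and 4.59 at 0 hours and at 6.39, 12.2 and 9.19 at 6 hours. All 6 VILI libraries lay outside the control range in both rows. Row 2 held between 94.4% and 95.8% of Smtnl2 in control and between 16.3% and 33.7% in the VILI libraries. The differences from control on the log2(FPKM + 0.1) scale were -2.55 (SE 0.24) and -2.29 (SE 0.24) for row 2 and 2.84 (SE 0.29) and 3.52 (SE 0.29) for row 1.

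Unlike Mtcl1, the sum of Smtnl2 was lower at 0 hours. It was 16.4, 13.6 and 11.7 FPKM in control, 8.24, 8.36 and 6.87 at 0 hours, and 9.64, 14.6 and 11.5 at 6 hours. The VILI 0 hours libraries lay below both other groups, while those of VILI 6 hours overlapped with control. The log2 difference of the sum was -0.81 (SE 0.18) at 0 hours and -0.23 (SE 0.18) at 6 hours, and 0.58 (SE 0.18) between VILI 6 hours and VILI 0 hours. Row 1 gained 4.93 FPKM on average at 0 hours, when row 2 fell by 11.02, and 8.55 at 6 hours, when row 2 fell by 10.6. The loss in row 2 was thus larger than the gain in row 1 at both times, and by more at 0 hours.

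Of the 6 rows of Rbbp5, rows 1, 4 and 5 held most of the gene. Row 4 was listed at 0, 0.000492 and 0 FPKM in control, at 3.51, 4.03 and 3.48 at 0 hours and at 3.79, 4.25 and 5.64 at 6 hours. It held between 28.7% and 86.9% of the gene in the 6 VILI libraries. Row 1 was at 5.79, 6.11 and 6.19 FPKM in control, 2.18, 2.48 and 2.53 at 0 hours and 2.27, 1.95 and 0.501 at 6 hours. Every VILI library thus lay above control in row 4 and below control in row 1. Row 1 differed from control by -1.30 (SE 0.46) and -2.10 (SE 0.46) on the log2(FPKM + 0.1) scale.

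Row 5 of Rbbp5 varied most within groups. It was at 6.87, 5.05 and 5.14 FPKM in control, 1.57, 5.46 and 4.04 at 0 hours, and 6.85, 2.41 and 0 at 6 hours. The groups overlapped, and the library at 0, replicate 3 of VILI 6 hours, was the one in which row 4 was highest. Rows 2 and 3 stayed under 0.6 FPKM in every library. The sum of Rbbp5 was 13.0, 11.6 and 12.01 FPKM in control, 7.71, 12.3 and 10.7 at 0 hours, and 13.2, 8.97 and 6.49 at 6 hours. Both VILI groups overlapped with control, at log2 differences of -0.28 (SE 0.25) and -0.41 (SE 0.25).

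Apoo differed from these genes in that its rows changed places within groups. In control, row 3 held the gene in replicate 1, at 6.04 FPKM, and was listed at 0 in replicates 2 and 3, whereas row 1 was at 0.00116, 5.58 and 6.33 FPKM. Rows 2 and 4 were at 0 in all 3 control libraries. At 0 hours, row 2 was at 2.44, 0.484 and 3.94 FPKM, row 3 at 0, 2.42 and 3.06, and row 4 at 4.06, 5.38 and 0. At 6 hours, row 2 was at 4.02, 5.25 and 2.71 FPKM, row 4 at 5.73, 0 and 2.46, and row 3 at 0 in all 3 libraries. Row 1 did not pass 0.295 FPKM in any VILI library. Row 2 was therefore above 0 in all VILI libraries and in no control library, and each of the 4 rows led the gene in at least 1 of the 9 libraries.

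The sum of Apoo hid these exchanges. It was 6.04, 5.58 and 6.33 FPKM in control, 6.79, 8.48 and 6.99 at 0 hours and 9.90, 5.27 and 5.44 at 6 hours. Within control the sum had a mean of 5.98 ± 0.380 FPKM (SD, n = 3), although 2 different rows carried it. The log2 difference of the sum was 0.30 (SE 0.23) at 0 hours and 0.14 (SE 0.23) at 6 hours. The within-group variance of the sum of Apoo was 0.166 of that of its rows added up, a ratio that 7.77% of 8764 genes with 2 or more rows and a mean sum of at least 1 FPKM reached or fell below. This ratio is 1 where rows vary independently and lower where they trade against each other from library to library. It was 0.847 in Smtnl2, 0.912 in Rbbp5, 0.942 in Rpl5, 0.943 in Dpm3, 1.004 in Scarf1, 1.82 in Mtcl1 and 2.01 in Yif1b, with a median of 0.961 over all. A ratio above 1 stands for rows that varied in the same direction on balance over the 3 groups, and not in each group, since in control row 1 of Yif1b was highest in replicate 2, at 2.33 FPKM, where row 2 was lowest, at 6.44 FPKM. GENCODE M21 lists 1 pseudogene named after Apoo, and a miRNA gene, Gm44477, lies in its span on the opposite strand.

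In Rpl5, the most abundant of the 8 genes, row 2 carried the level, and row 1 differed most on the log2 scale. In mean FPKM row 2 moved more, with a gain of 20.9 at 0 hours, when row 1 fell by 4.35. Row 1 was at 3.99, 5.98 and 4.08 FPKM in control, at 0.359, 0.335 and 0.300 at 0 hours and at 5.90, 5.55 and 4.25 at 6 hours. It was lower in all VILI 0 hours libraries and within the control range in all 3 libraries at 6 hours. Its log2 difference was -3.45 (SE 0.23) at 0 hours, 0.17 (SE 0.23) at 6 hours and 3.62 (SE 0.23) between the VILI groups. Row 1 never held more than 4.40% of the gene.

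Row 2 of Rpl5 was at 129, 137 and 157 FPKM in control, 167, 164 and 154 at 0 hours and 128, 121 and 137 at 6 hours. The control range overlapped with both VILI groups, and every VILI 0 hours library lay above every VILI 6 hours library. The log2 difference of row 2 from control was 0.20 (SE 0.09) at 0 hours and -0.13 (SE 0.09) at 6 hours. The sum of Rpl5 followed row 2, with 146 ± 13.8 FPKM in control, 162 ± 6.60 at 0 hours and 134 ± 7.36 at 6 hours (mean ± SD, n = 3 each). Between VILI 6 hours and VILI 0 hours the sum differed by -0.28 (SE 0.10) on the log2 scale while row 1 differed by 3.62, so that the minor row and the gene moved in opposite directions. Rpl5 values carry an added uncertainty, since 2 pseudogenes named after it are listed in GENCODE M21, Fam69a overlaps it on the opposite strand, and snoRNA genes (Snord21 among them) lie within its span on the same strand.

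Dpm3 also had a minor row that was lower after ventilation. Row 2 was at 2.29, 1.76 and 1.48 FPKM in control, at 0.0674, 0.172 and 0.0302 at 0 hours and at 0, 0.0681 and 0.0317 at 6 hours. All 6 VILI libraries lay below control, and the log2(FPKM + 0.1) difference at 0 hours was -3.40 (SE 0.40). Row 1 was at 20.4, 25.3 and 26.2 FPKM in control, 29.6, 28.8 and 30.6 at 0 hours and 30.4, 20.8 and 18.2 at 6 hours. The VILI 0 hours libraries lay above control in row 1, and those of VILI 6 hours overlapped with it. The sum moved with row 1, by 0.21 (SE 0.17) at 0 hours and -0.19 (SE 0.17) at 6 hours, and row 2 made up between 5.35% and 10.1% of it in control and at most 0.594% in any VILI library. The annotated coding transcripts of Dpm3 encode the same protein, given the coding sequence they share.

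In Scarf1 a minor row was at 0 after ventilation. Row 1 was at 0.753, 0.660 and 0.621 FPKM in control and was listed at 0 in all 6 VILI libraries. Row 2 was at 12.5, 11.1 and 12.1 FPKM in control, 9.94, 10.4 and 9.42 at 0 hours and 12.7, 7.94 and 6.26 at 6 hours. The VILI 0 hours libraries lay below control in row 2, by a log2 difference of -0.26 (SE 0.23), and the VILI 6 hours libraries overlapped with control at -0.46 (SE 0.23). The sum of Scarf1 differed by -0.34 (SE 0.22) and -0.54 (SE 0.22). Row 1 had made up between 4.88% and 5.67% of the gene in control.

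In Yif1b, rows 2 and 5 carried the gene in every library and the smaller rows moved. Row 4 was listed at 0 in all 3 control libraries, at 0.605, 0.522 and 0.667 FPKM at 0 hours and at 0.0115, 0 and 0 at 6 hours. Row 3 was at 1.48, 0.921 and 0.996 FPKM in control, 0, 0.123 and 0.370 at 0 hours and 4.16, 0.875 and 0.646 at 6 hours. At 0 hours the libraries thus lay above control in row 4 and below control in row 3, and at 6 hours neither separation was left. Row 2 ran from 3.91 to 9.68 FPKM and row 5 from 6.15 to 9.91 FPKM over the 9 libraries, and row 1 from 0.895 to 2.91. The sum of Yif1b was 20.2, 16.8 and 18.4 FPKM in control, 16.3, 19.4 and 15.8 at 0 hours and 24.9, 17.6 and 12.8 at 6 hours, with log2 differences of -0.11 (SE 0.21) and -0.05 (SE 0.21). The groups overlapped throughout. The coding gene 2200002D01Rik overlaps Yif1b on the opposite strand.

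**Figure D2:**
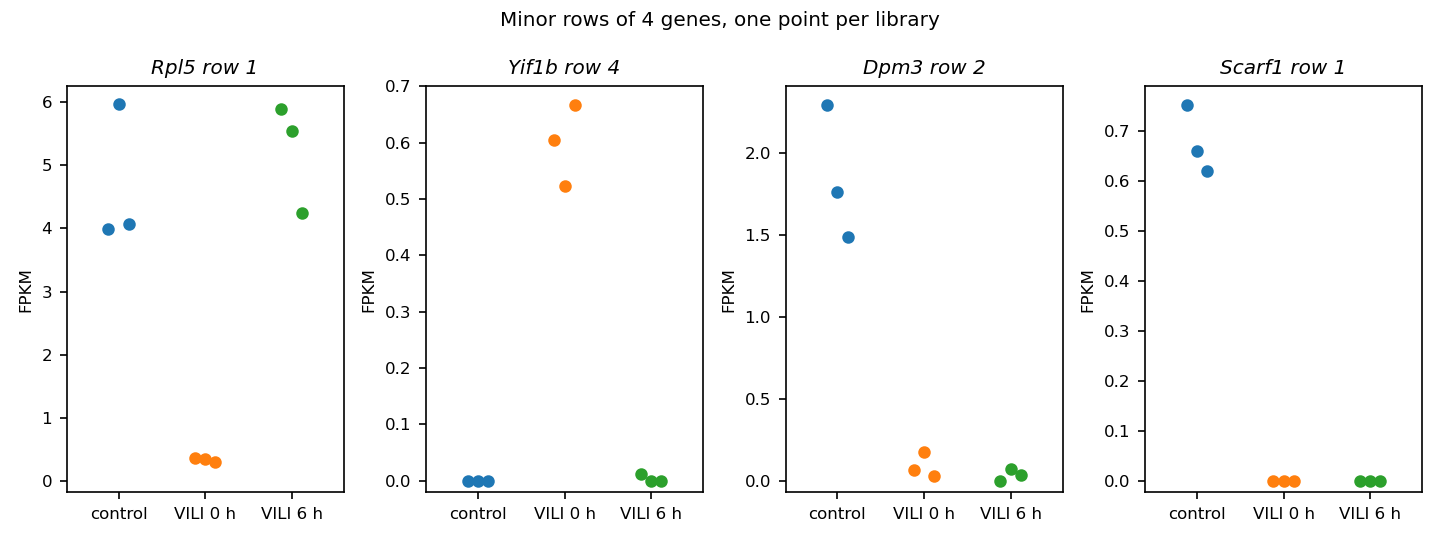
FPKM of a minor row of Rpl5, Yif1b, Dpm3 and Scarf1 by group, with 1 point per library (vertical axes in FPKM, linear, a separate scale per panel). Row 1 of Rpl5 and row 4 of Yif1b stand apart at 0 hours, and row 2 of Dpm3 and row 1 of Scarf1 lie at or near 0 in both VILI groups.

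The rows that stood apart from control, without overlap of the libraries, did so at both times or at one of them. Rows 1, 3 and 4 of Mtcl1, both rows of Smtnl2, rows 1 and 4 of Rbbp5, row 1 of Scarf1, row 2 of Dpm3 and row 2 of Apoo stood apart at both times. Row 1 of Rpl5, rows 3 and 4 of Yif1b and the main rows of Dpm3 (row 1) and Scarf1 (row 2) stood apart at 0 hours, and their libraries overlapped with control at 6 hours. Row 2 of Rbbp5 did so at 6 hours, with 0.149 to 0.229 FPKM against 0.243 to 0.596 in control. Both VILI groups were compared with the same 3 control libraries, so their values are given side by side and their likeness is not tested.

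Rows called at an unadjusted P under 0.05 numbered 13 of the 25 tested in VILI 0 hours vs control, 6 higher and 7 lower, where 4.71% of all 37300 rows tested were called higher and 6.31% lower. In VILI 6 hours vs control, 5 were called higher and 5 lower (all rows: 5.73% and 7.51%). Between 6 hours and 0 hours, 3 were called higher and 2 lower (all rows: 3.82% and 3.58%). After Benjamini-Hochberg adjustment over all rows tested, 10, 8 and 1 of these rows remained below an adjusted p of 0.05 in the 3 comparisons, of 19 (0.0509%), 28 (0.0751%) and 8 (0.0214%) among all rows. The 1 row in the last comparison was row 1 of Rpl5. These counts follow from how the genes were chosen and support nothing further. With libraries centred on their medians, the rows of the 8 genes called higher and lower numbered 8 and 7, 5 and 5, and 2 and 3. That centring shifted all rows by 0.12, 0.09 and -0.03 on the log2 scale and moved the share of higher rows among all called rows from 42.7% to 64.5%, from 43.3% to 57.4% and from 51.6% to 40.5%.

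For the sums of the 8 genes, 1 was called lower in VILI 0 hours vs control (Smtnl2), 1 lower in VILI 6 hours vs control (Scarf1), and 1 higher (Smtnl2) and 2 lower (Dpm3 and Rpl5) between 6 hours and 0 hours. Of all 19378 sums tested, 16.2%, 20.4% and 10.0% were called in these comparisons. The calls of Smtnl2 were kept under all 17 alternatives, and those of Scarf1, Rpl5 and Dpm3 were lost under 5, 4 and 12. These calls rest on the libraries in which the genes were chosen, so a call that is kept supports nothing further. With libraries centred on their medians, the sums of Mtcl1, Dpm3 and Apoo were also called higher at 0 hours. Without VILI 6 hours replicate 1, the sums of Apoo and Scarf1 were also called at 0 hours. Those of Dpm3 and Rbbp5 were then also called at 6 hours, and those of Apoo, Mtcl1 and Scarf1 between the VILI groups. On the 6 libraries of a comparison alone, Mtcl1, Apoo and Scarf1 were also called at 0 hours. Mtcl1 was also called at 6 hours without VILI 6 hours replicate 3. The median log2 difference of the 8 sums was 0.03, -0.15 and -0.16, against -0.07, -0.09 and -0.02 over all genes.

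**Figure D3:**
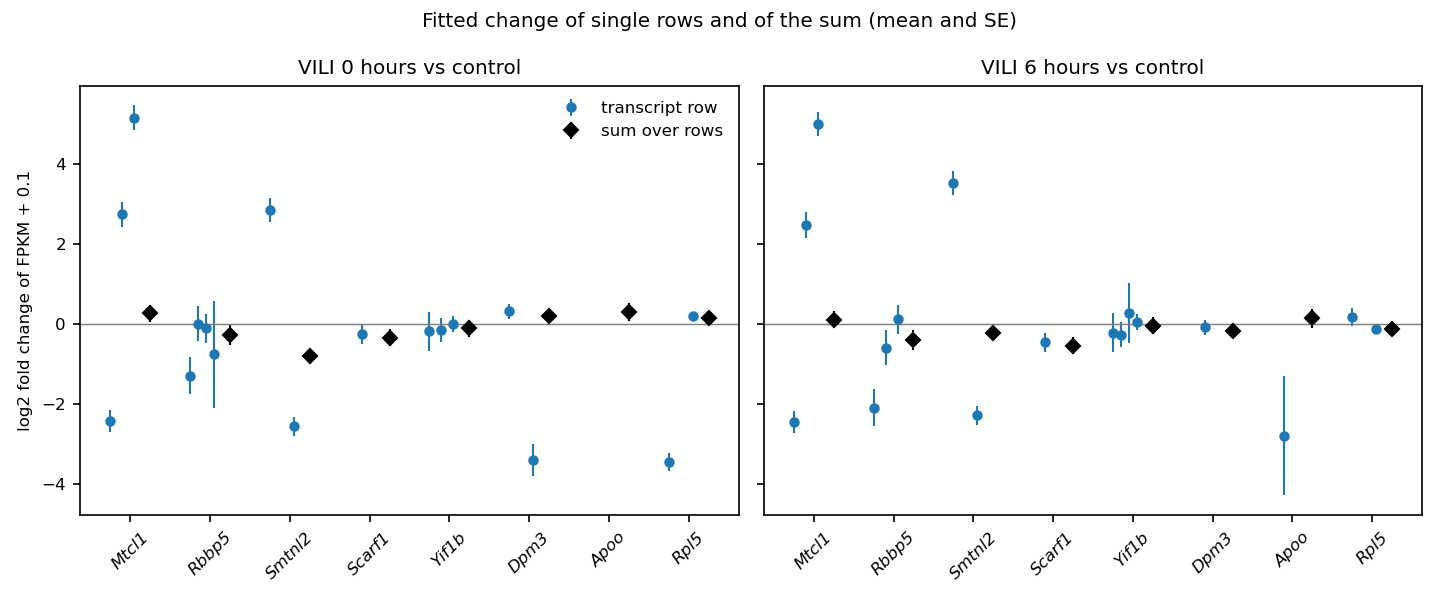
Difference from control of each row (blue circles) and of the sum (black diamonds) of the 8 genes on the log2(FPKM + 0.1) scale, as the fitted value with its SE, at 0 hours (left) and 6 hours (right). Rows with a library at 0 are left out of the comparison it belongs to, and no sum lies beyond -0.81 and 0.30, while rows reach from -3.45 to 5.15.

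The spread over all 9 libraries is a description too, since it comes from the values that chose the genes. The coefficient of variation of the sum had a median of 20.9% over the 8 genes and 17.1% over the 8764 genes, and the median coefficient of variation of the rows was 77.9% against 39.9%. Apoo had the widest gap of the 8, with 22.8% for the sum and 148% for its rows. Rpl5 had 10.1% and 41.5%, and Yif1b had 18.6% and 42.7%. An exact 0 in at least 1 library occurred in 10 of the 25 rows tested, and in 7002 of the 37300 rows tested in the whole table (18.8%).

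**Figure D4:**
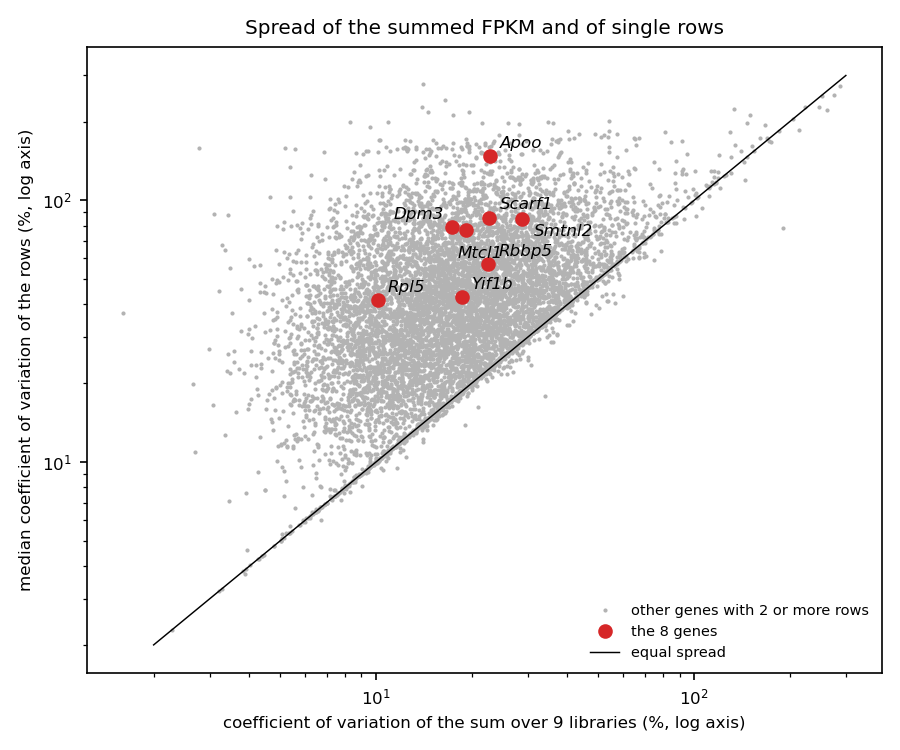
Coefficient of variation over the 9 libraries of the summed FPKM (horizontal, %, log axis) against the median coefficient of variation of the rows (vertical, %, log axis), for the 8 genes (red) and the other genes with 2 or more rows and a mean sum of at least 1 FPKM (grey). All 8 lie above the line of equal spread, from Rpl5 at 10.1% and 41.5% to Apoo at 22.8% and 148%.

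The row that led a gene differed between libraries in 5 of the 8 genes, Mtcl1, Rbbp5, Smtnl2, Yif1b and Apoo, and in 2746 of the 8764 genes (31.3%). A change of the leading row that kept to the groups was rarer. In 23 genes (0.262%) each group had a single leading row and these differed between groups. In 15 of them (0.171%), both VILI groups were led by another row than control: Atad5, Socs2, Zkscan3, Gk, Ak1, Pqlc2, Tmub2, Sun1, Ssx2ip, Cxcl2, Bod1l, Kif1b, Cd59b and, among the 8 genes, Mtcl1 and Smtnl2. Leading rows come from the values that chose the 8 genes, so their counts among the 8 are a description and support nothing further.

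The genes whose pattern was most like that of the 8 were taken as those with the largest rise and fall, whichever was smaller, in rows called at an unadjusted P under 0.05 with a mean of at least 1 FPKM, while the sum moved by less than 0.5 on the log2 scale. In VILI 0 hours vs control these included Tnnt2, Pwwp2a, Zfp384 and Ermard, and in VILI 6 hours vs control they were Tnnt2, Acvrl1, Dhdds, Rasef and Ncoa7. In Pwwp2a the groups overlapped in neither row, since row 1 was at 0.102, 0.0955 and 0.143 FPKM in control and 3.96, 2.94 and 3.23 at 0 hours, and row 3 at 3.15, 2.99 and 2.78 and then 0.0947, 0.0955 and 0.0641. In Acvrl1, a receptor of endothelial cells, row 3 was at 2.95, 7.001 and 24.9 FPKM in control and 138, 114 and 105 at 6 hours, and row 1 at 132, 130.5 and 103 and then 1.81, 0.197 and 0.135. Dhdds, at 6 hours, was alike in that neither its rising nor its falling row overlapped between the groups. In Tnnt2, Zfp384, Ermard, Rasef and Ncoa7, the groups overlapped in at least 1 of the rows. In Tnnt2, a troponin of cardiac muscle, row 1 was at 12.7 and 17.5 FPKM in 2 control libraries and listed at 0 in the third, where row 6 was at 4.42. In Rasef, row 1 was at 6.11, 0.0870 and 6.77 FPKM in control and row 2 at 0.0258, 6.37 and 0.0125, an exchange within control like that of Apoo.

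Genes of the same complexes, families or receptor classes as the 8, or that act with them, were looked at as whole genes. They are called partner genes here, and sharing a family or class does not mean working together. Their values are not part of the rule that chose the 8, although the list was drawn up with earlier results of these data known. The list held 45 gene names, some of which can stand for the same gene. Of these names, 43 were in the table and 41 were tested on summed FPKM. At an unadjusted P under 0.05, limma called 6 in VILI 0 hours vs control (2 higher, 4 lower), 3 in VILI 6 hours vs control (2 higher, 1 lower) and 7 between 6 hours and 0 hours (4 higher, 3 lower), where 16.2%, 20.4% and 10.0% of all sums tested were called. The 6 fell to 2 without control replicate 1 or 2 and to 3 without VILI 0 hours replicate 1. The 3 became 10 without VILI 6 hours replicate 1 and 1 without VILI 6 hours replicate 3, and the 7 fell to 3 without VILI 0 hours replicate 2. None passed Benjamini-Hochberg adjustment over all 19378 genes in any comparison, and the lowest adjusted p was 0.114, 0.112 and 0.280. Of the 16 calls, 3 passed the unadjusted threshold under every alternative tried, namely Cd36 at 0 hours against both other groups and Msr1 at 6 hours against control, and the rest missed it under at least 1. The median log2 difference of the listed genes was -0.06, -0.07 and -0.02, beside -0.07, -0.09 and -0.02 over all genes.

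Of the 10 genes listed beside Rbbp5, the histone methyltransferases Kmt2a, Kmt2c and Kmt2d were lower at 0 hours at the unadjusted threshold. Kmt2a missed it under 4 of the 17 alternatives (median centring and without control replicate 1 or 2 or VILI 0 hours replicate 1), Kmt2d under 2 (without control replicate 1 or 2) and Kmt2c under 1 (median centring). Kmt2a had 15.7 ± 1.68 FPKM in control and 12.3 ± 1.20 at 0 hours (limma adjusted p = 0.229), Kmt2c 28.1 ± 0.391 and 23.1 ± 0.373 (adjusted p = 0.135), and Kmt2d 31.7 ± 4.66 and 24.2 ± 0.642 (adjusted p = 0.205; mean ± SD, n = 3). At 6 hours Kmt2c and Kmt2d had 27.1 ± 0.806 and 29.8 ± 3.26 FPKM, and their differences from 0 hours had adjusted p of 0.399 and 0.498 and missed the unadjusted threshold under 1 and 9 of the 17 alternatives. Dpy30, a small subunit of the same complexes, had 18.1 ± 1.39 FPKM in control and 7.19 ± 3.34 at 6 hours (adjusted p = 0.167), a call lost without VILI 6 hours replicate 3. The other 6 listed genes, Wdr5, Ash2l, Kmt2b, Setd1a, Setd1b and Men1, did not pass the unadjusted threshold in any of the comparisons.

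Of the 7 scavenger receptors listed beside Scarf1, Cd36, which takes up fatty acids and modified lipoproteins, had 295 ± 41.4 FPKM in control, 463 ± 71.5 at 0 hours (limma adjusted p = 0.114) and 295 ± 50.4 at 6 hours. Msr1, a receptor of macrophages, had 1.64 ± 0.410 FPKM in control and 5.46 ± 1.67 at 6 hours (adjusted p = 0.112). Among the 5 genes beside Rpl5, Rpl11 had 181 ± 11.5 FPKM in control and 218 ± 18.2 at 0 hours (adjusted p = 0.249), a log2 difference of 0.27 (SE 0.10) beside 0.16 (SE 0.10) for the sum of Rpl5. Heatr3, an import factor for ribosomal proteins, was at 6.89 ± 0.581 and 4.997 ± 0.373 FPKM (adjusted p = 0.238), and Rrs1, a factor of ribosome assembly, at 7.32 ± 1.22 FPKM in control and 11 ± 2.84 at 6 hours (adjusted p = 0.168). Yipf4 of the family of Yif1b and 2410015M20Rik of MICOS were lower at 6 hours than at 0 hours by 0.26 and 0.28 on the log2 scale, with adjusted p of 0.410 and 0.424. At 0 hours, the calls of Rpl11 and Heatr3 were each lost without control replicate 1 or 2 or VILI 0 hours replicate 1 or 2, and at 6 hours against control that of Rrs1 was lost without control replicate 2 or 3 or VILI 6 hours replicate 3. The calls of Yipf4 and 2410015M20Rik were each lost when replicate 2 of VILI 0 hours was left out and when replicate 3 of VILI 6 hours was, and the latter also when replicate 2 of VILI 6 hours was. No tested gene listed beside Mtcl1, Smtnl2 or Dpm3 passed the unadjusted threshold. Of 27 listed genes with 2 or more rows tested, none had a row called higher and a row called lower at 0 hours and 1 did at 6 hours (Kmt2c), beside 1.82% and 2.06% of all genes.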

How the data were processed

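Total RNA of mouse lung, depleted of ribosomal RNA, was sequenced in 9 libraries, 3 per group, with groups taken from the labels. The sources differ on the library kit and sequencer, so strand information is not settled. The authors aligned reads with TopHat2 2.0.9 and Bowtie2 2.0.6 to GRCm38, assembled transcripts with Scripture and Cufflinks, and deposited FPKM per transcript from Cuffdiff 2.1.1, with columns of position and length filled only for assembled loci. Fragments shared by transcripts are divided by a model, which can move single rows without moving their sum. The deposited file holds no counts and read totals of the libraries were not used here, so precision rests on the number of libraries.

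Gene IDs (23503 of 23713 matched) were named by GENCODE M21, and FPKM was summed per gene. limma 3.58.1 (R 4.3.3; lmFit, eBayes with trend) was fitted to log2(FPKM + 0.1) of rows or sums with a mean of at least 0.1 FPKM, all 9 libraries in 1 fit, two-sided. Called means that the unadjusted P was under 0.05, as in the study, and Benjamini-Hochberg adjustment ran over everything tested. Fold changes on this scale understate those of low rows. An exact test of 3 against 3 libraries was not used. Rows with a library at 0 are given by their values. The procedure was tested on simulated data with known changes. The replicate numbers were checked for pairing by the correlation of deviations from group means. Coding sequences were read from the GENCODE M21 transcripts with Python 3.11.15, pandas 2.3.3 and matplotlib 3.10.9.

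The text names every row of the 8 genes, the listed partner genes called in any comparison and, per comparison, the 5 most similar genes, except for an item that is not reported here. The 8 genes, the partner and marker lists and the tests were chosen with earlier results of these data known. Each count was repeated with each library left out, with median-centred libraries, without a filter, with a mean of at least 1 FPKM, with pseudocounts of 0.01 and 1, on the 6 libraries of a comparison alone, with the replicate number as a block and with eBayes set to no trend.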

Additional observations from a re-analysis of the deposited data

Results flagged for a closer look

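The main row of Rpl5 lay on opposite sides of the control mean at the 2 times. Row 2 was on average 20.9 FPKM above the control mean in VILI 0 hours, where all 3 libraries were above it, and 12.1 FPKM below it (a difference of -12.06 FPKM) in VILI 6 hours, where all 3 libraries were below it. The sum of Rpl5 did the same, with differences of 16.6 and -11.5 FPKM. With libraries centred on their medians, the log2 difference at 0 hours went from 0.20 to 0.33 for row 2, which was then called, and from 0.16 to 0.27 for the sum, and that at 6 hours went from -0.13 to -0.04 for row 2 and from -0.12 to 0.01 for the sum, so that the sum no longer lay below control. Both differences are set against the same control libraries, whose own values spread from 133 to 161 FPKM for the sum. Without centring, neither the row nor the sum was called against control at either time. At 0 hours both were called higher without control replicate 3, and row 2 also without VILI 6 hours replicate 3. Between 6 hours and 0 hours, row 2 differed by -0.33 on the log2 scale and the sum by -0.28 (SE 0.10), both called at an unadjusted P under 0.05, and the sum lost that call under 4 of 17 alternatives.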

How the results depend on the processing

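No called difference of a row, a sum or a named partner gene turned its direction under those of the 17 alternatives in which it was tested. Of the 28 calls of rows of the 8 genes, rows with a library at 0 included, 24 were kept wherever tested, and 6 were not tested with a mean of at least 1 FPKM. Row 1 of Rbbp5 at 0 hours lost its call without control replicate 2 or 3 or VILI 0 hours replicate 1, and row 3 of Yif1b at 0 hours with 1 FPKM added. Between the VILI groups, row 2 of Rpl5 lost its call without a trend and row 1 of Smtnl2 under 11 alternatives. Of the 5 calls of sums, 2 were kept throughout. The calls of these rows and sums rest on the libraries in which the genes were chosen, so keeping them supports nothing further. The sum of Rpl5 lost its call with median centring and without VILI 0 hours replicate 1 or 2 or VILI 6 hours replicate 2, and that of Scarf1 without control replicate 1 or 3 or VILI 6 hours replicate 2 or 3 and on 6 libraries. The sum of Dpm3 kept its call under 5 alternatives. The 16 partner calls were lost 45 times in all. Of the fold changes of rows and sums, 17 moved by more than the spread between replicates. Most of these 17 came from the pseudocount: with 1 FPKM added, row 4 of Mtcl1 differed from control by 3.54 and 3.40 and row 1 of Rpl5 by -2.08 at the earlier time. Median centring took the sum of Rpl5 to 0.27 at 0 hours and 0.01 at 6 hours. With a mean of at least 1 FPKM, 76 genes instead of 149 had a row called higher and a row called lower at 0 hours, and 71 instead of 169 at 6 hours. Without a trend in eBayes, 3 rows of the 8 genes instead of 5 were called between the VILI groups. Leaving out 1 library at a time, genes with opposing rows ranged from 122 to 189 at 0 hours and from 133 to 345 at 6 hours, the latter without VILI 6 hours replicate 1. Called rows of the 8 genes ranged from 12 to 14, 10 to 12 and 4 to 8, the last again without VILI 6 hours replicate 1. Called partner genes ranged from 2 to 7, 1 to 10 and 3 to 8. The 2 came when control replicate 1 or 2 was dropped (3 when VILI 0 hours replicate 1 was), the 1 when VILI 6 hours replicate 3 was, the 10 when VILI 6 hours replicate 1 was, and the last 3 when VILI 0 hours replicate 2 was. The cause of these shifts was not tested. The replicate numbers did not pair the libraries, since deviations of same-numbered libraries correlated between -0.159 and 0.026 (9 pairs). With a replicate block, Rpl11 at 0 hours and Rrs1 between the VILI groups missed the threshold, and 13, 10 and 4 rows of the 8 genes were called in the 3 comparisons, 5, 4 and 6 partner genes, and 151 and 184 genes with opposing rows.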
